A study of Mus musculus with 6 samples.

Results

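Foxp3 and 4 genes linked with regulatory T cells, Gpr83, Nrp1, Ebi3 and Lrrc32, were followed across 3 sorted pools of splenic CD4+ T cells. They were taken by name, 5 of the 38216 different gene symbols in a table of transcript abundances, and all 5 were found and reached the level required for testing. Foxp3 and Lrrc32 shared an order of levels, highest in ICOS+ cells without an Il21 reporter signal, intermediate in ICOS- cells and lowest in reporter-positive cells, although the Lrrc32 difference between the reporter-negative pools did not pass its test. Nrp1 followed another order, low in ICOS- cells and high in both ICOS+ pools, so that reporter-positive cells had high Nrp1 RNA beside low Foxp3 RNA.

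Regulatory T cells restrain other immune cells, and the forkhead transcription factor Foxp3 defines their lineage and maintains their gene programme. Lrrc32 encodes GARP, a membrane protein that holds latent TGF-beta on the surface of activated regulatory cells, and Nrp1 encodes neuropilin 1, a coreceptor for semaphorins and vascular growth factors that is widely used as a marker of mouse regulatory cells of thymic origin. Gpr83 encodes a G protein-coupled receptor enriched in mouse regulatory cells. Ebi3 encodes a secreted protein rather than a surface one, the shared subunit of the cytokines IL-27 and IL-35. Regulatory cells carry ICOS, a costimulatory receptor raised on activated T cells, and interleukin 21, the product of Il21, is a cytokine with which follicular helper T cells stimulate B cells.

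All cells came from spleens of naive C57BL/6 mice on postnatal day 28 that carried an IL21-VFP reporter, in which cells transcribing Il21 fluoresce with VFP. N cells were sorted as CD4+ VFP-ICOS-, ACT cells as CD4+ VFP-ICOS+, and ACT IL21 cells as CD4+ VFP+ICOS+. Each pool was measured in 2 libraries, and mice without the reporter were not among the groups. The labels describe the cells as pools, do not give the number of mice, and do not tie the 2 libraries in each pool to separate mice, so the p-values reflect only how far the libraries of a pool lie apart, which may be technical.

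Values are TPM, a relative transcript abundance scaled for transcript length and to a fixed total per library, and the number of reads behind them is unknown. Differences were tested with limma on log2(TPM + 1) over 13311 genes, and fold changes on this scale understate the change of low genes. Each library had 12095 to 12396 genes at 1 TPM or more. The defining CD4 T cell genes were abundant in every library, with summed levels of 3336 to 4985 TPM over Cd4, the CD3 chain genes, Cd5 and Cd28. Not all were level across the pools. By limma with Benjamini-Hochberg adjustment, Cd4 was higher in ACT IL21 than in N (adjusted p = 0.0301) and ACT (0.0103). Its means were 337 (N), 252 (ACT) and 550 TPM (ACT IL21). Cd28 was higher in ACT IL21 than in N (0.00899). Cd247, a CD3 chain gene, was lower in ACT than in N (0.0221) and ACT IL21 (0.0205). Icos, a sort marker, was at 31.92 and 35.67 TPM in N and at 185 to 254 TPM in the other 4 libraries, and Il21 was at 44.48 and 51.87 TPM in ACT IL21 and at 1.26 TPM or listed at 0 elsewhere.

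Foxp3 (ENSMUSG00000039521.13) lies on chromosome X, 7573644 to 7595245, GRCm38, plus strand, and is a protein-coding gene with up to 14 exons in a transcript. Its promoter is shown because Foxp3 had the largest difference of the 5 genes between the ICOS+ pools, and that of Nrp1 because its order of levels differed from that of Foxp3. The sequences are RefSeq's, build GRCm38.p6, plus strand, from 250 bases before to 50 after an annotated start. Foxp3 has 2 such starts, of which the upstream one is shown. Capitals mark TATAAA, the core of the TATA box, and GGAAA, the core that NFAT factors bind, on either strand.
Foxp3, chrX:7579426-7579725: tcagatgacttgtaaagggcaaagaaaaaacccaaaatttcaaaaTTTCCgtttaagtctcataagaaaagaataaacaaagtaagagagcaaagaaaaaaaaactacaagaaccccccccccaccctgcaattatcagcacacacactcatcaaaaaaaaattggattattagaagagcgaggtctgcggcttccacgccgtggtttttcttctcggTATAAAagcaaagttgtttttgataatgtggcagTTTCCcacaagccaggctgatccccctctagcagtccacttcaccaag
Nrp1, chr8:128358823-128359122: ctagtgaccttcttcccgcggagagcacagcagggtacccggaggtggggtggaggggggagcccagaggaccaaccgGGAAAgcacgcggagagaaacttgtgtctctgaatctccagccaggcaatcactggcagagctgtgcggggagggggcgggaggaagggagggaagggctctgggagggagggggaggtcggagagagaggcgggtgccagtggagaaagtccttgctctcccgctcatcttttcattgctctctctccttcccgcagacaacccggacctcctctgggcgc
The Foxp3 window held TATAAA at position -32, counted from 0 at the start, and GGAAA on the minus strand at positions -205 and 2. The Nrp1 window held no TATAAA, and held GGAAA at position -172 and the GC box GGGCGG at position -98. Neither window held TGTGGT, the RUNX core, TGTTTAC, a forkhead core, or TGANTCA, the AP-1 core, on either strand, and the matches did not overlap each other. Of 32851 mouse promoter windows of the same length, 13.6% held TATAAA, 61.3% GGAAA, 35.7% GGGCGG, 16.8% TGTGGT, 3.65% TGTTTAC and 7.81% TGANTCA. The G and C content was 40.7% for Foxp3 and 64% for Nrp1.

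Foxp3 RNA measured 22.19 and 19.38 TPM in N. The ACT libraries held 65.43 and 51.87 TPM, and those of ACT IL21 1.57 and 2.69 TPM. The 3 pools did not overlap, with both ACT libraries highest and both ACT IL21 libraries lowest. In ACT the Foxp3 level exceeded that of 82.6% and 78.1% of the genes tested, and in ACT IL21 that of 13.6% and 19.6%. The mean was 2.82-fold higher in ACT (58.6 ± 9.59 TPM) than in N (20.8 ± 1.99 TPM, SD, n = 2 libraries each), and in ACT IL21 (2.13 ± 0.792 TPM) it was 9.76-fold lower than in N and 27.5-fold lower than in ACT. In such pools, fewer cells expressing a gene and less RNA per cell cannot be told apart.

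By limma with Benjamini-Hochberg adjustment over all genes tested, Foxp3 rose in ACT against N by 1.45 ± 0.31 on the log2 scale (SE, adjusted p = 0.0367). In ACT IL21 it lay below N by a log2 fold change of -2.82 ± 0.31 (adjusted p = 0.00251). Against ACT the value was -4.27 ± 0.31 (adjusted p = 0.00212), rank 5 by p among all genes tested. Foxp3 differed among the 3 pools in the F test (adjusted p = 0.000648), as 7.03% of all genes did, and did so with each library left out (adjusted p = 0.00644 to 0.0192). The rise in ACT did not pass with any single library left out, with an adjusted p of 0.221 or 0.3 when N replicate 1 or 2 was missing, 0.15 or 0.0804 for ACT replicate 1 or 2, and 0.0518 or 0.054 for ACT IL21 replicate 1 or 2. The fall against N did not pass without N replicate 1 (0.0606) or N replicate 2 (0.0513), and the fall against ACT did not pass without ACT IL21 replicate 1 (0.0621).

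Several annotated genes overlap Foxp3, and the strand setting of the counting is not given in the sources used here, so reads in the shared stretches could be assigned to either gene. Ppp1r3f and Ccdc22, both on the minus strand, overlap its ends. Ccdc22 was at 16.02 and 13.93 TPM in N and between 5.25 and 7.77 TPM in the other 4 libraries. Ppp1r3f ranged from 2.62 to 12.21 TPM over the 6 libraries. Neither followed the Foxp3 order, since Ccdc22 was highest in N, and the mean of Ppp1r3f was too. The noncoding gene Flicr, annotated over the same region, was not analysed here.

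**Figure D1:**
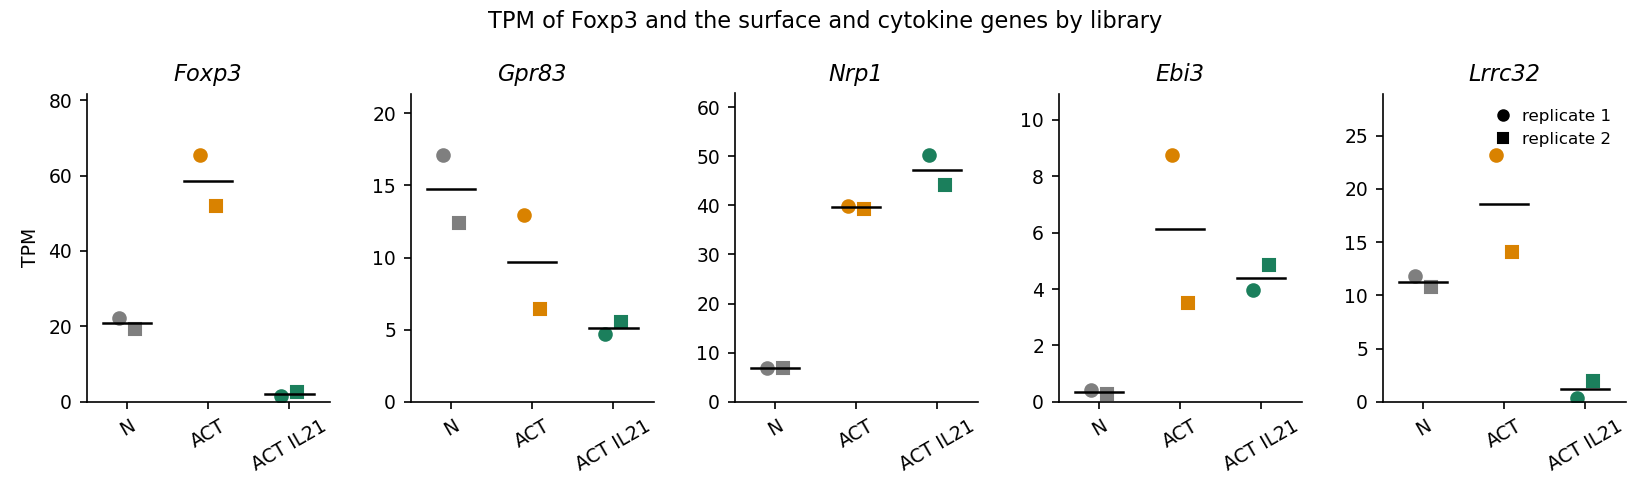
TPM (vertical axes, linear, from 0) of Foxp3, Gpr83, Nrp1, Ebi3 and Lrrc32 in the 2 libraries of each pool, with circles and squares for replicates 1 and 2 and a bar at the mean. Foxp3 and Lrrc32 are lowest in ACT IL21, while Nrp1 is lowest in N and at 39.32 TPM or more in the ICOS+ pools.

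Lrrc32, the GARP gene (ENSMUSG00000090958.2, chromosome 7, 98489283 to 98502181, GRCm38, plus strand, protein-coding), was at 11.79 and 10.76 TPM in N, 23.18 and 14.05 TPM in ACT, and 0.38 and 1.97 TPM in ACT IL21. Both ACT libraries lay above N and both ACT IL21 libraries below it, but the ACT libraries differed from each other by more than the lower of them differed from N. The fall of Lrrc32 in ACT IL21 passed against N, at a log2 fold change of -2.6 ± 0.48 (SE, adjusted p = 0.0209). It also passed against ACT, at -3.24 ± 0.48 (adjusted p = 0.0175). The value of ACT against N was 0.64 (95% interval -0.46 to 1.74, adjusted p = 0.55) and did not pass.

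The mean of Lrrc32 in ACT IL21 (1.18 ± 1.12 TPM, SD, n = 2) was 9.6-fold below that in N (11.3 ± 0.728) and 15.8-fold below that in ACT (18.6 ± 6.46). Against ACT the call did not pass with any single library left out (adjusted p = 0.0629 to 0.134), with the 2 ICOS+ pools alone (0.084) or without a filter on low values (0.0703). Against N it did not pass without N replicates 1 and 2 (0.19 and 0.192), without ACT IL21 replicates 1 and 2 (0.141 and 0.0693) or without the filter (0.0755).

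Of 11 genes for partners and relatives of GARP, 8 were tested. In ACT against N 2 were higher and none lower, where 4.15% and 1.43% of all genes were. In ACT IL21 against N also 2 were higher and none lower, where 3.82% and 1.26% of all genes were. Between the ICOS+ pools none passed by limma, and 3 had an unadjusted p under 0.05. Tgfb1, which encodes the TGF-beta carried by GARP, was at 16.55 and 7.93 TPM in N, 28.41 and 17.08 TPM in ACT, and 15.16 and 18.46 TPM in ACT IL21. The pools of Tgfb1 overlapped except for ACT against N, and none of its differences passed (adjusted p = 0.298 for ACT against N). Hsp90b1, the gene of the chaperone gp96 that GARP needs to reach the surface, rose in ACT from 483 ± 59.9 to 932 ± 51.5 TPM (log2 fold change 0.95, adjusted p = 0.0106). Itgb8, an integrin chain gene that takes part in releasing TGF-beta from GARP, also rose in ACT (2.44, adjusted p = 0.0257).

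In ACT IL21 the members of that list that rose were Tgfb3 and Itgav. Tgfb3, another TGF-beta gene, went from 1.1 ± 0.658 TPM in N to 17.9 ± 2.03 TPM (log2 fold change 3.2, adjusted p = 0.00551), and Itgav, the integrin chain that pairs with Itgb8, from 22.2 ± 1.85 to 63.2 ± 4.32 TPM (1.47, adjusted p = 0.00546). No call in the GARP list held with each of the 6 libraries left out.

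Gpr83 (ENSMUSG00000031932.14, chromosome 9, 14860210 to 14870789, GRCm38, plus strand, protein-coding) stood highest in N. Its levels were 17.1 and 12.38 TPM in N, 12.94 and 6.42 TPM in ACT, and 4.67 and 5.55 TPM in ACT IL21. N and ACT overlapped, while ACT IL21 lay below both, at 2.88-fold below N on the means. None of the 3 differences passed, with log2 fold changes of -0.61 (95% interval -1.56 to 0.33, adjusted p = 0.495) for ACT against N, -1.35 (-2.3 to -0.41, adjusted p = 0.12) for ACT IL21 against N and -0.74 (-1.69 to 0.21, adjusted p = 0.452) between the ICOS+ pools. A difference among the pools in the F test was not detectable either (adjusted p = 0.185).

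Of 6 genes for signalling partners of Gpr83, Pcsk1n, which encodes the precursor of a peptide ligand of the receptor, was listed at 0 in every library. Gnaq, a G protein alpha subunit gene, was higher in ACT IL21 (14.1 ± 1.64 TPM) than in N (3.75 ± 0.559 TPM, log2 fold change 1.67, adjusted p = 0.0303), and the other 4 tested did not pass in any comparison. No gene of the list passed by limma in ACT against N, with 2 at an unadjusted p under 0.05, and between the ICOS+ pools none, with 1.

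Nrp1 (ENSMUSG00000025810.9, chromosome 8, 128358604 to 128503363, GRCm38, plus strand, protein-coding) was at 6.91 and 6.84 TPM in N, 39.92 and 39.32 TPM in ACT, and 50.21 and 44.12 TPM in ACT IL21. Every library of the ICOS+ pools lay far above both N libraries, and the ACT IL21 libraries lay slightly above those of ACT. Nrp1 rose 5.76-fold in ACT (log2 fold change 2.37 ± 0.22 SE, adjusted p = 0.000966) and 6.86-fold in ACT IL21 (2.61 ± 0.22, adjusted p = 0.000816). Between ACT IL21 and ACT it differed by 0.24 (95% interval -0.27 to 0.76, adjusted p = 0.668) and did not pass. Both calls against N held under all 14 alternative settings, with adjusted p of at most 0.0212 in ACT and 0.0421 in ACT IL21.

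Of 14 genes of neuropilin ligands, coreceptors and adaptors, 8 were tested, and none passed against N in either ICOS+ pool by limma, with 1 in ACT and 2 in ACT IL21 at an unadjusted p under 0.05. Sema3a and Sema3c, genes of secreted semaphorins, and Plxna4, a plexin gene, were listed at 0 in all 6 libraries, and Kdr and Flt1, the vascular growth factor receptor genes, stayed at or under 0.1 TPM. Plxna1 and Plxna3, genes of plexins that signal with neuropilins, were measured at 1.24 to 7.63 TPM. Sema4a, which encodes a membrane semaphorin that binds neuropilin 1 on mouse regulatory cells, was lower in ACT IL21 (46.4 ± 5.72 TPM) than in ACT (111 ± 5.8 TPM, log2 fold change -1.24, adjusted p = 0.0258), a call that did not hold with any library left out.

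Ebi3 (ENSMUSG00000003206.7, chromosome 17, 55952640 to 55957022, GRCm38, plus strand, protein-coding) was the lowest of the 5 genes in N. It stood at 0.4 and 0.28 TPM in N, 8.75 and 3.5 TPM in ACT, and 3.95 and 4.86 TPM in ACT IL21. The ICOS+ libraries all lay above N, and the ACT libraries enclosed those of ACT IL21. Because Ebi3 was under 1 TPM in both N libraries, it reached the level for testing through the ICOS+ pools alone. It rose in ACT (log2 fold change 2.31 ± 0.5 SE, adjusted p = 0.038), and in ACT IL21 the value of 2.01 ± 0.5 did not pass (95% interval 0.86 to 3.16, adjusted p = 0.0657). Between the ICOS+ pools the value was -0.3 (-1.45 to 0.85, adjusted p = 0.829).

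The Ebi3 calls moved with the setting. The rise in ACT passed without ACT replicate 2 and did not pass without N replicate 1 (0.221), N replicate 2 (0.259), ACT replicate 1 (0.123), ACT IL21 replicate 1 (0.0927) or ACT IL21 replicate 2 (0.0934). The difference of ACT IL21 from N passed without ACT replicate 1 (0.0404) or ACT replicate 2 (0.0394). An antisense gene, Gm16712, is annotated over the end of Ebi3 and was not analysed here.

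Subunits that pair with the Ebi3 protein were at or near 0. Il27, the partner in IL-27, was listed at 0 in all 6 libraries, and Il12a, the partner in IL-35, was at 0.51 TPM in N replicate 2 and listed at 0 in the other 5. The receptor chain genes were measured. Il27ra, the IL-27 receptor chain, was at 68.93 to 100.74 TPM with no call, and Il6st, which encodes the shared chain gp130, fell in ACT from 216 ± 3.73 to 123 ± 33 TPM (log2 fold change -0.84, adjusted p = 0.0487), a call that held in 1 of the 6 fits with a library left out. Il12rb2, a chain of the IL-12 and IL-35 receptors, rose in ACT from 4.08 ± 0.205 to 48.8 ± 4.62 TPM (3.29, adjusted p = 0.000914) and was lower in ACT IL21 (7.32 ± 1.46 TPM) than in ACT (-2.59, adjusted p = 0.00757). Il12rb1, the other IL-12 receptor chain gene, rose in ACT (2.6, adjusted p = 0.00736) and in ACT IL21 (2.14, adjusted p = 0.0191). With a library left out, the rise of Il12rb2 held in 6 of 6 fits and its difference between the ICOS+ pools in 2, and the Il12rb1 calls held in 4 and 2.

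In ACT against N, 3 of the 5 genes rose (Foxp3, Nrp1 and Ebi3), where 5.58% of all genes tested were called, 4.15% higher and 1.43% lower. The libraries of 4 of the 5 lay above N without overlap and none below, against 25.2% and 21.9% of all genes. Ebi3, tested only through the pools in which it was high, counts among both the 3 and the 4 and adds no support to either. In ACT IL21 against N, Nrp1 rose and Foxp3 and Lrrc32 fell, where 5.09% of all genes were called, 3.82% higher and 1.26% lower. Without overlap, Nrp1 and Ebi3 lay above N and the other 3 genes below, as 31.5% and 19.9% of all genes did. Here too Ebi3 adds no support. Between ACT IL21 and ACT, Foxp3 and Lrrc32 were lower, where 1.95% of all genes were called, 1.15% lower and 0.796% higher. Nrp1 lay above ACT without overlap and Foxp3, Lrrc32 and Gpr83 below, as 24.5% and 17.3% of all genes did. The comparisons share pools, so their values are set side by side and are not independent of each other. The genes were chosen with earlier results of these data known, and the counts are a description.

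**Figure D2:**
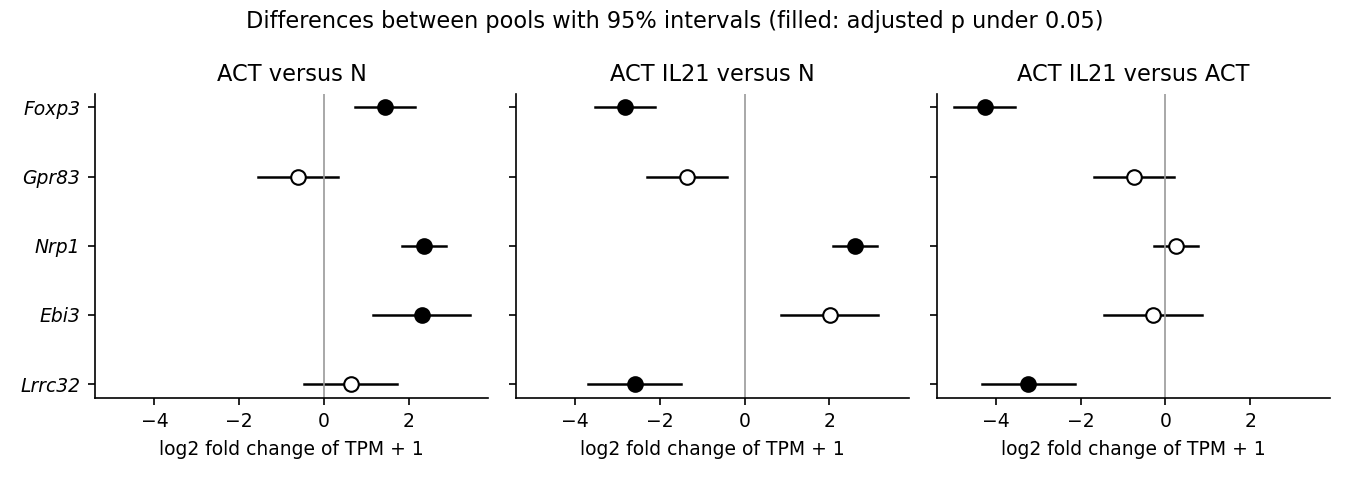
Log2 fold change of TPM + 1 (horizontal axes) of the 5 genes in the 3 comparisons, with 95% intervals from limma; filled points have an adjusted p under 0.05. Foxp3 lies at 1.45, -2.82 and -4.27 in the 3 panels, and Nrp1 at 2.37, 2.61 and 0.24.

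The amount of each gene relative to Foxp3 in the same library is given as a description, since Foxp3 itself separated the 3 pools. Nrp1 had 0.311 and 0.353 times the TPM of Foxp3 in N, 0.61 and 0.758 times in ACT, and 32 and 16.4 times in ACT IL21. Ebi3 had at most 0.134 times the TPM of Foxp3 in N and ACT, and 2.52 and 1.81 times in ACT IL21. For Gpr83 these ratios were 0.771 and 0.639 in N, 0.198 and 0.124 in ACT, and 2.97 and 2.06 in ACT IL21. No 2 of the 3 pools overlapped in these ratios, and the same held for 81.1% of all other genes tested, so it is not particular to these 3 genes.

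For Lrrc32 the ratios were 0.531 and 0.555 in N, 0.354 and 0.271 in ACT, and 0.242 and 0.732 in ACT IL21. In these TPM ratios N and ACT did not overlap, and the 2 ACT IL21 libraries, in which both genes were low, enclosed them. On log2 ratios of TPM + 1 the ACT IL21 libraries, at -0.9 and -0.31, enclosed those of N and lay above those of ACT. In an exact permutation test over the 15 distinct assignments of the 6 libraries to pools, applied to log2 ratios of TPM + 1, the p was 0.0667 for Gpr83, Nrp1 and Ebi3, the smallest this design allows, and 0.2 for Lrrc32. Adjusted over these 4 two-sided tests the values were 0.0889 and 0.2, so none can reach 0.05. On the log2 scale the mean ratio of Nrp1 to Foxp3 was -1.46 ± 0.12 in N, -0.54 ± 0.22 in ACT and 3.96 ± 0.5 in ACT IL21 (SD, n = 2), and that of Lrrc32 was -0.83 ± 0.05, -1.64 ± 0.25 and -0.61 ± 0.41.

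**Figure D3:**
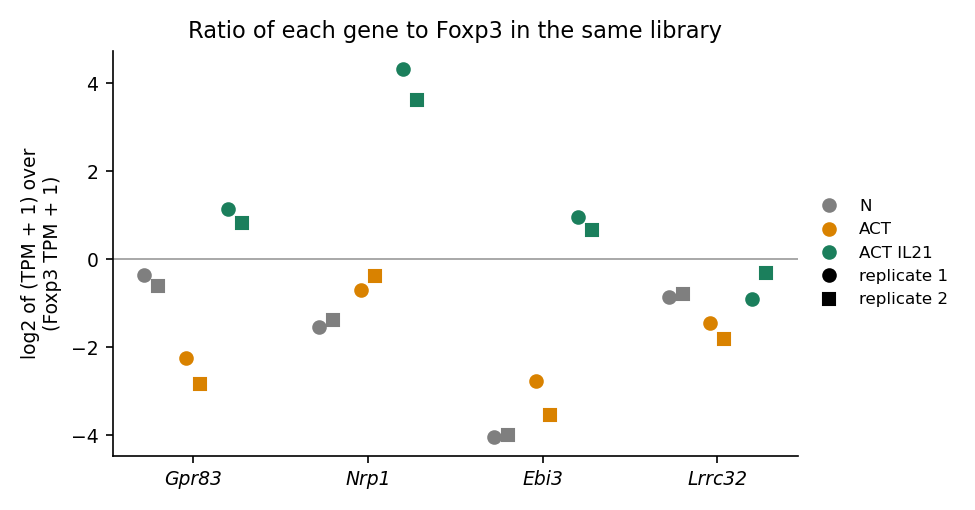
Log2 ratio of TPM + 1 of Gpr83, Nrp1, Ebi3 and Lrrc32 to that of Foxp3 in the same library (vertical axis), coloured by pool, with circles and squares for replicates 1 and 2. The ACT IL21 libraries lie above 0 for Gpr83, Nrp1 and Ebi3 and below 0 for Lrrc32.

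Other genes of the regulatory T cell programme were examined as a list of 26, all of them tested. In ACT against N 23 were higher and none lower, where 4.15% and 1.43% of all genes were. The median log2 fold change was 2.84 against 0.02 over all genes. Of the 23, 5 (Klrg1, Il10, Il1rl1, Ccr6 and Ccr8) were under 1 TPM in both N libraries and were tested only through pools in which they were higher. In ACT IL21 against N 14 were higher and 2 lower, where 3.82% and 1.26% of all genes were, with a median of 1.47 against 0.1. Of the 14, Il10 and Ccr6 were likewise tested only through the ICOS+ pools. Between ACT IL21 and ACT 9 were lower and none higher, where 1.15% and 0.796% of all genes were, with a median of -1 against 0.08. The list holds Icos, on which the cells were sorted, and genes that other activated T cells also express.

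With a library left out, the count in ACT ran from 12 (without N replicate 2) and 13 (without N replicate 1) to 19, and was 15 without ACT replicate 1. The count of higher genes in ACT IL21 against N was 3 without either ACT IL21 library, 6 and 5 without N replicates 1 and 2, and up to 13 otherwise, and leaving out each of those 4 libraries left 1 lower gene in place of 2. The 9 lower genes between the ICOS+ pools became 0 without ACT IL21 replicate 1, 1 without ACT IL21 replicate 2, 2 without ACT replicate 1 and 4 without each of the other 3 libraries. Without ACT IL21 replicate 1, limma called 0 genes of all 13311 in that comparison at an adjusted p under 0.05, and 1631 had an unadjusted p under 0.05. Of the calls, 12 in ACT and 4 in ACT IL21 against N held with each library left out, and none between the ICOS+ pools did.

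A first set of these genes followed Foxp3 and was low in ACT IL21. Il2ra, the alpha chain of the interleukin-2 receptor and a defining surface protein of regulatory cells, measured 46.08 and 64.23 TPM in the N libraries, 123.51 and 125.37 in those of ACT, and 7.16 and 8.48 in those of ACT IL21. Its 3 pools did not overlap, in the order of Foxp3. In ACT IL21, Il2ra fell against N (log2 fold change -2.66, adjusted p = 0.000816) and against ACT (-3.83, adjusted p = 0.0019). Il2ra rose in ACT against N (1.18, adjusted p = 0.0233), a call that no fit with a library left out kept. Ikzf4, which encodes Eos, a corepressor partner of Foxp3, measured 12.8 and 10.64 TPM in the N libraries, 16.91 and 18.13 in those of ACT, and 2.97 and 1.73 in those of ACT IL21. Ikzf4 likewise fell against N (-1.94, adjusted p = 0.0214) and against ACT (-2.49, adjusted p = 0.016), without a call between ACT and N (0.55, adjusted p = 0.486). No fit with a library left out kept the Ikzf4 call against ACT, and only some kept that against N.

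A further set was raised in ACT and near the N level in ACT IL21. Itgae, the integrin chain CD103, was at 22.5 ± 5.49 TPM in ACT against 0.91 ± 0.156 in N and 0.945 ± 0.445 in ACT IL21. Tnfrsf18, the gene of the receptor GITR, had 190 ± 9.25 TPM in ACT against 70.3 ± 8.22 in N and 80.7 ± 9.62 in ACT IL21, and Tnfrsf9, the gene of the costimulatory receptor 4-1BB, at 95.3 ± 24, 12.7 ± 5.01 and 17.1 ± 3.95 TPM in the same pools. All 3 were higher in ACT than in N (adjusted p = 0.0028, 0.0027 and 0.00249) and lower in ACT IL21 than in ACT (0.00823, 0.0136 and 0.0136). Between the ICOS+ pools, no fit with a library left out kept the Tnfrsf18 call, and only some kept those of Itgae and Tnfrsf9.

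Other genes of the list were high in both ICOS+ pools, as Nrp1 was. Ctla4, an inhibitory receptor gene, measured 33.8 and 43.07 TPM in the N libraries, 190.38 and 312.15 in those of ACT, and 249.71 and 256.52 in those of ACT IL21, with a log2 fold change of 0.05 between the ICOS+ pools (adjusted p = 0.946). Tigit, another inhibitory receptor gene, rose from 1.99 ± 0.375 TPM in N to 99.9 ± 19 in ACT and 119 ± 9.13 in ACT IL21. Nt5e, the gene of the ectonucleotidase CD73, rose from 12.9 ± 1.29 to 57.8 ± 2.03 and 73 ± 3.87 TPM. Ikzf2, which encodes Helios and is used with Nrp1 to mark thymic regulatory cells in mice, had its highest mean in ACT (192 ± 26.8 TPM), with 23.8 ± 7.05 in N and 87.7 ± 3.65 in ACT IL21. Ikzf2 rose in both pools against N (log2 fold changes 2.98 and 1.86, adjusted p = 0.000398 and 0.0041), and its difference between them did not pass (-1.12, adjusted p = 0.0556). Of the 5 Ikaros family genes, which include Ikzf2 and Ikzf4, 2 were higher in ACT against N and none lower. Of all genes, 4.15% were higher and 1.43% lower there. The other gene that rose was Ikzf3, which encodes Aiolos, at 118 ± 1.92 TPM in N and 321 ± 6.51 TPM in ACT (log2 fold change 1.43, adjusted p = 0.000914). In ACT IL21 Ikzf3 was at 183 ± 6.69 TPM, above N (0.62, adjusted p = 0.0373) and below ACT (-0.81, adjusted p = 0.0255). In ACT IL21 against N 2 of the 5 were higher and 1 lower, where 3.82% and 1.26% of all genes were. Between the ICOS+ pools 2 were lower in ACT IL21 and none higher, where 1.15% and 0.796% were.

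**Figure D4:**
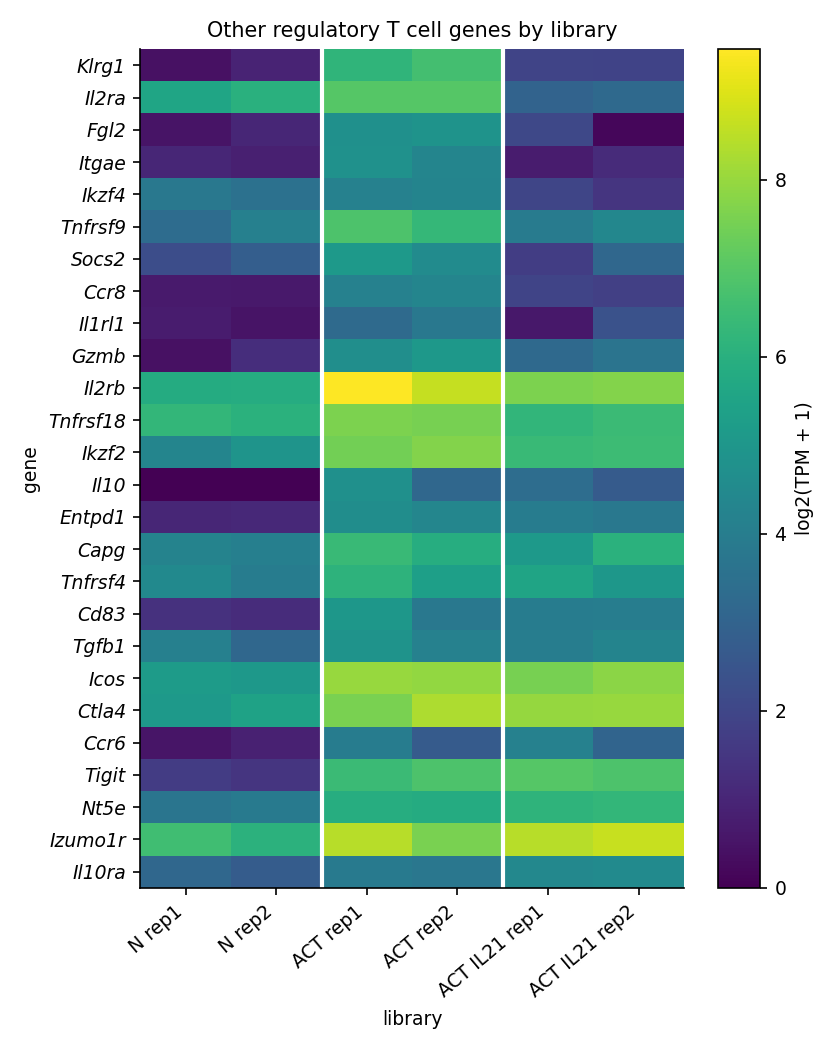
Level of the 26 other regulatory T cell genes as log2(TPM + 1), by colour, in the 6 libraries (columns), with genes ordered from the lowest to the highest log2 fold change of ACT IL21 against ACT. Genes at the top, among them Il2ra, Itgae and Ikzf4, are dark in ACT IL21, while Ctla4, Tigit and Nt5e near the bottom are bright in both ICOS+ pools.

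As a sum, natural killer and NKT cell markers were highest in ACT, as Itgae and Tnfrsf9 were, and lowest in N. Not every gene kept this order. Prf1 had its highest mean in N (7.6 ± 0.467 TPM), and Klrd1 and Klra1 had their lowest in ACT IL21 (10.1 ± 5.27 and 0.365 ± 0.304 TPM). Over 10 such genes the summed level was 62.4 to 70.5 TPM in N, 995 to 1116 TPM in ACT and 178 to 219 TPM in ACT IL21, and Ncr1, which encodes a defining receptor of natural killer cells, was at 1.06 TPM or less in every library. Of 9 tested, 2 (Klrb1c and Nkg7) were higher and 2 (Klrd1 and Prf1) lower in ACT IL21 against N, where 3.82% and 1.26% of all genes were. In ACT against N 5 rose, where 4.15% of all genes did. Of the 5, Zbtb16 was under 1 TPM in both N libraries. It was tested only through the ICOS+ pools, in which it was higher, and adds no support to the count. Between the ICOS+ pools 6 were lower in ACT IL21 than in ACT, where 1.15% of all genes were. The 6 became 3 without either N library, 1 without either ACT library, and 0 and 2 without ACT IL21 replicates 1 and 2. Klrg1, counted among the regulatory genes and also a natural killer cell receptor, was at 85.4 ± 17.8 TPM in ACT and at 2.78 ± 0.113 TPM or less elsewhere. The part of such cells in the results was not tested.

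Defining markers of other cells that can carry these genes were mostly near 0. Of 8 B cell markers 7 were under 1 TPM in every library, with a summed level of 0.98 to 2.77 TPM over the 3 pools. Of 12 dendritic cell markers Siglech and Clec9a were listed at 0 in every library, and the sum of the 12 was 49.5 to 72.9 TPM in N, 103 to 129 TPM in ACT and 82.2 to 93.4 TPM in ACT IL21, most of it from Cst3 and Bst2. Of 7 tested, 2 rose in ACT against N by limma, where 4.15% of all genes did. They were Cst3, from 29.1 ± 3.61 to 60.1 ± 11.6 TPM (adjusted p = 0.0338), and Cd74, from 2.61 ± 0.679 to 16.2 ± 2.26 TPM (adjusted p = 0.0119). Both passed without ACT replicate 2, 1 passed without either ACT IL21 library, and none without either N library or ACT replicate 1. Their part in the results was not tested. Macrophage and monocyte markers summed to at most 9.04 TPM over 7 genes, with Cd14 listed at 0. Of 8 endothelial markers 6 were under 1 TPM in all libraries, and the sum of 64.1 to 138 TPM came from Pecam1, which T cells also express, and Vwf. By limma, Pecam1 was lower in ACT than in N (log2 fold change -1.09, adjusted p = 0.00698) and higher in ACT IL21 than in ACT (0.9, adjusted p = 0.0327). Of 7 platelet markers Gp1bb was listed at 0 and Itgb3 made most of the sum, with means of 63.3 ± 9.27 (N), 77.9 ± 8.72 (ACT) and 17.4 ± 0.0778 TPM (ACT IL21), while Pf4, the defining platelet factor gene, reached at most 1.79 TPM. Itgb3 was lower in ACT IL21 than in N (log2 fold change -1.8, adjusted p = 0.00269) and in ACT (-2.1, adjusted p = 0.00415). The part of Pecam1 and Itgb3 in the results was not tested.

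Factors that act on the Foxp3 locus or bind its protein were examined as a list of 31. ACT against N gave 4 higher and 4 lower, where 5.58% of all genes were called, ACT IL21 against N gave 3 and 2, where 5.09% were, and ACT IL21 against ACT gave 1 and 0, where 1.95% were. With any library left out, 1 or 2 were higher in ACT, and those lower were 1 and 2 without N replicates 1 and 2 and 3 otherwise. In ACT IL21 against N, 1 was higher without N replicate 1 or ACT IL21 replicate 1 and 0 without ACT IL21 replicate 2, 1 was lower without either ACT IL21 library, and the call between the ICOS+ pools was lost in each fit. The median log2 fold changes were 0.11, 0.19 and 0.14. Runx1 and Cbfb, whose products bind Foxp3 regulatory DNA together, were at 70.59 to 84.19 TPM and 149.86 to 181.48 TPM over the 6 libraries with no call. Stat5a and Stat5b, which carry the interleukin-2 signal to Foxp3, had no call either, at 20.84 to 45.81 TPM.

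The regulators that rose in ACT were Irf4, Nfatc1, Smad3 and Gata3, and those that fell were Bach2, Foxp1, Foxo1 and Satb1. No fit with a library left out kept the calls of Gata3 and Satb1 in ACT, and most lost that of Smad3. Bach2, which encodes a repressor needed for the balance of regulatory and effector cells, had 113 ± 2.72 TPM in N and fell to 34.9 ± 1.9 (ACT) and 32.3 ± 0.919 (ACT IL21) (log2 fold changes -1.67 and -1.78, adjusted p = 0.00146 and 0.0015) and was the member whose calls held with each library left out. Smad3, which carries TGF-beta signals to Foxp3, was at 71.1 ± 0.983 TPM in ACT, 27.7 ± 6.71 in N and 31.6 ± 3.42 in ACT IL21, and its difference between the ICOS+ pools did not pass (-1.15, adjusted p = 0.051). In ACT IL21 Nfatc1, the gene of an NFAT factor, rose from 62.9 ± 8.28 to 225 ± 22.4 TPM, Irf4, which encodes a factor of activated and effector regulatory cells, from 5.38 ± 0.629 to 36.5 ± 7.91 TPM, and Ezh2, a histone methyltransferase gene, from 68.7 ± 16 to 158 ± 25.4 TPM. Satb1, a genome organizer gene that Foxp3 lowers, went from 1430 ± 210 to 861 ± 79.9 in ACT and 510 ± 46.5 TPM in ACT IL21.

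Among 8462 genes with a mean of at least 5 TPM, those whose log2(TPM + 1) followed Foxp3 most closely over the 6 libraries were Abca1, Il2ra, Slfn8, Gpr34 and Mgat4a, with Pearson correlations of 0.995 to 0.987. Abca1, a cholesterol exporter gene, had means of 5.75 ± 0.177 (N), 13.9 ± 0.396 (ACT) and 1.2 ± 0.191 TPM (ACT IL21). The genes closest to Lrrc32 were Enpp4, Gsto1, Rpl38, Slfn8 and Eif4e3 (0.996 to 0.99), and Slfn8 was thus named for both. The correlation between Foxp3 and Lrrc32 themselves was 0.976, and that between Foxp3 and Nrp1 was -0.27. These values describe 6 libraries in 3 pools that share a sort, and many genes reach high values with so few points.

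The genes closest to Nrp1 were Prr13, Maf, Tigit, Cd44 and S100a6 (0.9997 to 0.996), of which Cd44 encodes an adhesion receptor of activated and memory T cells and Maf a transcription factor that drives Il21. Maf had means of 1.44 ± 0.283 (N), 63.4 ± 0.799 (ACT) and 104 ± 4.91 TPM (ACT IL21). Those closest to Ebi3 were Bmp7, Cd83, Cks1b, Sntb2 and H2-Q5 (0.998 to 0.994), and each of them, like Ebi3, was higher in ACT replicate 1 than in ACT replicate 2. Among those closest to Gpr83 were Pwp2, Ifrd2, Pvr and Mylip (0.989 to 0.98). Ebi3 correlated with Nrp1 at 0.93 and with Foxp3 at -0.04, and Gpr83 with Foxp3 at 0.64 and with Nrp1 at -0.78.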

How the data were processed

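RNA was measured in 6 libraries, 2 for each of the pools N, ACT and ACT IL21. Extraction used Qiagen RNeasy and library making the NuGEN Ovation kit on poly-A RNA, per the labels' protocols. The deposited values are gene-level TPM, made by the authors with Trimmomatic, Bowtie and RSEM on GRCm38, per the submitters' processing notes, which give no versions. TPM keeps no read number, so depth is unknown and no counting interval is given.

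The 38355 entries were summed to 38216 symbols. The 13311 genes reaching 1 TPM in 2 or more libraries entered limma 3.58.1 (R 4.3.3) as log2(TPM + 1), with all 6 libraries in 1 model of pool, an intensity trend, two-sided tests, and Benjamini-Hochberg adjustment over these genes in each comparison (threshold 0.05, 3 residual and 4.84 prior degrees of freedom). The fit was tested on simulated data. The 172 genes of 16 lists were matched by symbol, 3 of them by an older symbol. Text names members, up to 8 called genes a list, the most abundant of lists without calls, and for each member the 5 genes most correlated with it, provisional symbols left out and 1 gene not reported here; other named genes were chosen after their values were seen. The members and lists were chosen with earlier results of these data known. Alternatives changed the pseudocount, filter, scaling, trend, pools in the fit and replicate block, and left out each library.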

Additional observations from a re-analysis of the deposited data

How the results depend on the processing

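No result changed direction among those called, and Nrp1 kept its calls against N, and Gpr83 its lack of calls, under all 14 alternatives tried. With a pseudocount of 0.1, Foxp3 in ACT against N was 1.49 (adjusted p = 0.0606) and Ebi3 in ACT IL21 against N was 3.36 and passed (0.0441). Without a filter, over 18778 genes, the calls numbered 469 in ACT against N, 410 in ACT IL21 against N and 124 between the ICOS+ pools, in place of 743, 677 and 259. There Foxp3 (1.45, 0.0755) and Ebi3 (2.31, 0.103) in ACT against N, and Lrrc32 in ACT IL21 against N (-2.6, 0.0755) and against ACT (-3.24, 0.0703), did not pass, nor did the F tests of Ebi3 (0.133) and Lrrc32 (0.0536). The F test of Ebi3 also missed the threshold with median-of-ratios scaling (0.0503) and without the trend (0.0554), where Foxp3 in ACT against N (1.45) had an adjusted p of 0.0537. With only the 2 pools compared in the fit, 417 genes were called in ACT against N and 92 between the ICOS+ pools, Ebi3 did not pass in ACT (2.31, 0.0917) but passed in ACT IL21 (2.01, 0.0421), and Lrrc32 did not pass between the ICOS+ pools (-3.24, 0.084). With a minimum of 5 TPM, Ebi3 was not tested. The cause of these changes was not tested.

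With the replicate number as a block, the F test of Ebi3 was at 0.0539, and no other call of the 5 genes changed. The labels tie the numbers to no shared mouse or day. The deviations of same-numbered libraries from their pool means correlated at 0.21 for N and ACT. The values were -0.004 for N and ACT IL21 and 0.0008 for ACT and ACT IL21. With 2 libraries in each pool, these values cannot tell whether same-numbered libraries shared a mouse or day.

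With each library left out in turn, the calls numbered 205 to 526 in ACT against N, 75 to 728 in ACT IL21 against N and 0 to 81 between the ICOS+ pools. Foxp3 ranged from 1.28 to 1.61, from -3.08 to -2.56 and from -4.53 to -4.01 in the same order. Ebi3 ranged from 1.75 to 2.86 in ACT and from 1.89 to 2.13 in ACT IL21 against N, and Lrrc32 from -3.15 to -2.05 against N and from -3.79 to -2.68 between the ICOS+ pools. The F test gave adjusted p of 0.0339 to 0.334 for Ebi3 and 0.0285 to 0.0876 for Lrrc32. The counts of other regulatory T cell genes, an alternative chosen after seeing the data, as for the other lists, were 12 to 19 higher in ACT, 3 to 13 higher and 1 to 2 lower in ACT IL21 against N, and 0 to 4 lower between the ICOS+ pools. A pool left with 1 library was assumed to vary like the others. TPM carries no read number, so the counting error of low values, such as Ebi3 in N and Lrrc32 in ACT IL21, is unknown.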

Other observations

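Genes of follicular helper and follicular regulatory cells were examined as a list of 12, all tested. In ACT against N 8 were higher and none lower, where 4.15% and 1.43% of all genes were. The median log2 fold change was 2.06 against 0.02 over all genes. In ACT IL21 against N 9 were higher and none lower, where 3.82% and 1.26% of all genes were (median 3.11 against 0.1). Between ACT IL21 and ACT 5 were higher and 2 lower, where 0.796% and 1.15% of all genes were (median 1.17 against 0.08). Il21, on whose reporter the cells were sorted, is among the 9 and the 5. Of the 12, 5 were under 1 TPM in both N libraries and were tested only through the ICOS+ pools. Among these, Tox2 and Il4 count among the 8, and Il21, Tox2 and Il4 among the 9, and they add no support to either count. With any library left out the 8 became 3 to 5, the 5 became 0 to 2 and the 2 became 0, and the 9 became 6 without N replicate 1 and 5 without either ACT IL21 library. By limma, Cxcr5, the receptor that brings T cells to B cell follicles, rose from 2.69 ± 1.63 TPM in N to 93.5 ± 2.21 TPM in ACT IL21 (adjusted p = 0.000378) and was at 16.4 ± 1.95 TPM in ACT. Bcl6, the lineage factor of follicular helper cells, was at 52.2 ± 4.92 TPM in ACT IL21, 22 ± 2.91 in ACT and 23.8 ± 1.2 in N, and was higher in ACT IL21 than in ACT (log2 fold change 1.21, adjusted p = 0.0342), a call that no fit with a library left out kept. The 2 lower genes were Il4 and Prdm1, the gene of the repressor Blimp-1, which went from 42.2 ± 5.11 TPM in ACT to 11.9 ± 1.97 in ACT IL21 (-1.75, adjusted p = 0.0215), both calls held by no fit with a library left out. Il1r2, a decoy receptor gene used to mark follicular regulatory cells, was at 0.26 ± 0.368, 4.11 ± 2.1 and 1.15 ± 1.08 TPM in N, ACT and ACT IL21 with no call.

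Genes that Foxp3 is known to repress were examined as a list of 6. In ACT against N, where Foxp3 was higher, 4 were higher and 1 lower (median 1.51 against 0.02 over all genes). Of all genes, 4.15% were higher and 1.43% lower there. In ACT IL21 against N, where Foxp3 was lower, again 4 were higher and 1 lower (median 1.69 against 0.1), where 3.82% and 1.26% of all genes were. Of the 4 in each comparison, Il2 and Il4 were under 1 TPM in both N libraries. They were tested only through the ICOS+ pools, in which they were higher, and add no support to either count. With any library left out the counts in ACT were 2 and 0, and those in ACT IL21 were 2 and 1 without either N library and 0 and 0 without either ACT IL21 library. Ifng, the interferon gamma gene, had means of 2.71 ± 3.01 (N), 147 ± 29.8 (ACT) and 80.1 ± 20.5 TPM (ACT IL21), and Il2, the interleukin-2 gene, of 0.315 ± 0.445, 5.42 ± 1.75 and 6.41 ± 2.69 TPM. Between the ICOS+ pools Il4 and Pde3b, a phosphodiesterase gene, were lower in ACT IL21 (log2 fold changes -2.38 and -1.16, adjusted p = 0.0239 and 0.0175), calls that no such fit kept. Pde3b was at 125 ± 0.658 TPM in ACT, 86.9 ± 12.4 in N and 55.5 ± 4 in ACT IL21, the order of Foxp3.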
